A study of Mus musculus with 15 samples.

Results

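The genes described here encode mast cell proteases and receptors: the proteases Mcpt1, Mcpt2, Mcpt4, Cma1, Cpa3 and Tpsb2 and the receptors Fcer1a, Ms4a2 and Kit. They were taken by gene name from a table of read counts in mouse colon, and all 9 were found among its 56859 genes. A filter on low counts left 18038 genes to test, including 6 of the 9 (Mcpt1, Mcpt2, Cma1, Cpa3, Tpsb2 and Kit). Mcpt4, Fcer1a and Ms4a2 had too few reads for the filter and were tested only in fits without it or with other libraries.

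Colons of male C57BL/6J mice, 6 to 10 weeks old, were sampled in a model in which the carcinogen azoxymethane (AOM) and repeated dextran sulfate sodium (DSS), which injures the gut epithelium, lead to colitis-associated cancer. The 15 libraries form 5 groups of 3. The APX3330 libraries came from mice given AOM and DSS with APX3330 (E3330 in the titles), which blocks redox activity of the protein APE1/Ref-1. The saline D27, saline D48 and saline D100 libraries came from mice given AOM and DSS with saline as placebo, and carry the days 27, 48 and 100. The titles call D48 cycle1 and D100 cycle2 and give D27 no cycle. The Control libraries are labelled as C57BL/6 wild type. The protocol text lists AOM at 10 mg/kg on day 0, 2.5% DSS on days 7 to 11, 28 to 32 and 49 to 53, and APX3330 at 25 mg/kg or saline on the DSS days. That text is shared by all samples and says that mice received AOM, so whether the Control mice did is not settled here. The labels of APX3330 libraries carry no day, so in every comparison of it with a saline group a drug difference and a day difference cannot be told apart. The labels do not say that the libraries are separate animals, so the p-values cover only the spread among these libraries.

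Mast cells store proteases in granules and release them when antigen cross-links IgE on the receptor Fc epsilon RI, whose alpha chain is Fcer1a and whose beta chain is Ms4a2. In mice, mucosal mast cells of the gut lining carry the chymases encoded by Mcpt1 and Mcpt2, whereas connective tissue mast cells of the deeper layers carry the chymase genes Mcpt4 and Cma1 (mouse mast cell protease 5), the carboxypeptidase Cpa3 and the tryptase Tpsb2. Kit is the receptor for stem cell factor, on which mast cells depend, and in the gut wall it also marks the interstitial cells of Cajal, the pacemaker cells of the muscle.

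The 4 chymase genes lie together on chromosome 14 (GRCm38, GENCODE M21). Cma1 spans 55941451 to 55944675 on the minus strand, Mcpt1 spans 56017971 to 56020384 on the plus strand, Mcpt2 spans 56042041 to 56044642 on the plus strand, and Mcpt4 spans 56059629 to 56062313 on the minus strand. The start of Mcpt2 is 24.1 kb and that of Mcpt4 41.7 kb beyond that of Mcpt1. Their reading frames are similar, which bears on how reads are shared between them, so the first 150 coding bases of 3 of them are shown, with bases that differ from Mcpt1 in capitals:
Mcpt1: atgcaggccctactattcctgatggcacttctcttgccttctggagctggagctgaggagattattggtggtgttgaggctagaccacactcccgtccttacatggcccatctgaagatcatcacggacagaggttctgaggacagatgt
Mcpt2: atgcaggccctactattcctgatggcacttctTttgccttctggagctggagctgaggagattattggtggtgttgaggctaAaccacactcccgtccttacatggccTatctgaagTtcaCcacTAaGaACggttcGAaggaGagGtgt
Mcpt4: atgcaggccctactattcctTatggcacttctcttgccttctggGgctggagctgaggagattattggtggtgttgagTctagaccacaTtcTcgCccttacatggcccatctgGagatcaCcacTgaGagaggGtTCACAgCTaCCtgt
In this window Mcpt2 differs from Mcpt1 at 14 bases and Mcpt4 at 20. Over aligned coding bases Mcpt1 is 82.05% identical to Mcpt2, 86.45% to Mcpt4 and 65.3% to Cma1. No stretch of 50 bases of the Mcpt1 transcript occurs in Mcpt2, Mcpt4 or Cma1, and none of Mcpt2 occurs in the other 3. Mcpt4 does share such stretches with another locus gene, Cma2, at 5.48% of its 50-base windows, so its reads are the least certain. How reads that match more than 1 gene were counted is not given in the sources used here.

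The promoters were compared because the mucosal and connective tissue genes have different profiles over the groups. The 250 bases before the start are given for 3 genes from RefSeq (GRCm38.p6, each on its own strand), with every match to GATAA or its reverse complement TTATC, the core recognised by GATA factors, in capitals:
Mcpt1, chr14:56017714-56017963, plus strand: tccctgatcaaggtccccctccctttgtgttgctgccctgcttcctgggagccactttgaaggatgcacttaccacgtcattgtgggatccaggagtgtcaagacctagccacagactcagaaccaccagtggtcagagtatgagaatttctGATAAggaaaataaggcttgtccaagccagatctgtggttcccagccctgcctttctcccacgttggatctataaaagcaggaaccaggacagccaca
Mcpt4, chr14:56062311-56062560, minus strand: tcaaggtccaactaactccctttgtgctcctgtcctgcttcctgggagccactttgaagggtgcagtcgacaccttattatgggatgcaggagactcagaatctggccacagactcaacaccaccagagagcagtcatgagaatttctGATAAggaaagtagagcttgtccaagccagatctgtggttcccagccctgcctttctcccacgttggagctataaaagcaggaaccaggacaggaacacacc
Cma1, chr14:55944676-55944925, minus strand: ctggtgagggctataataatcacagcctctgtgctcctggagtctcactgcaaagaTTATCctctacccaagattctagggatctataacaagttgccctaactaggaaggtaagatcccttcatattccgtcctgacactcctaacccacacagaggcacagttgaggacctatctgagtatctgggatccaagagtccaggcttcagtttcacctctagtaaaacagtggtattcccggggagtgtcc
The Mcpt1 and Mcpt4 windows were 86.4% identical over aligned bases, a share close to that of their coding sequences, and each held 1 GATAA. The Cma1 window was 63.5% identical to that of Mcpt1. The promoter table held 7 of the 9 genes (not Mcpt2 and Tpsb2), and 6 of these 7 windows had the motif, against 22.6% of 32851 promoters in the table. Kit had none. The E-box CATGTG (reverse complement CACATG), found in 12.3% of promoters, occurred in Fcer1a alone of the 7, and CACGTG, the palindromic E-box found in 6.02%, in none. These matches describe letters in the window and are not binding sites.

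The libraries held between 13548661 and 17919613 counts. A count of 0 in a library still allows up to 3 counts, which is 0.167 to 0.226 CPM (reads scaled to library size) over the 15 libraries, and such limits cover counting error only. Epithelial markers summed to 6552 to 8891 CPM in all libraries, as in colon. Some libraries held transcripts of other tissues. Keratinised squamous epithelium markers made up 0.135% and 0.0641% of counts in Control libraries 1 and 3 and 0.0921% in saline D100 library 1, against at most 0.0106% elsewhere. Exocrine pancreas markers made up 4.25% and 1.16% in saline D48 libraries 2 and 3, against at most 0.0357% elsewhere. For the calls reported below, of the 9 genes and of the further genes named, loss without these libraries is given as such.

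Mucosal protease transcripts were few in APX3330 and Control colons, with 0 to 10 reads a gene and library, and higher in every saline colon. Mcpt1 had 5, 1 and 4 reads in the APX3330 libraries, 86, 21 and 12 in saline D27, 116, 314 and 131 at D48, 108, 182 and 67 at D100, and 0, 10 and 6 in Control. Mcpt2 had 0, 0 and 2 reads in APX3330, 46, 11 and 16 in saline D27, 46, 136 and 53 at D48, 54, 79 and 20 at D100, and 3, 0 and 0 in Control. For both genes the lowest saline library lay above the highest APX3330 and the highest Control library, while APX3330 and Control overlapped. For Mcpt1 this gap was narrow at D27, with 12 reads in library 3 against 10 in Control library 2, which counting error can cover.

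**Figure D1:**
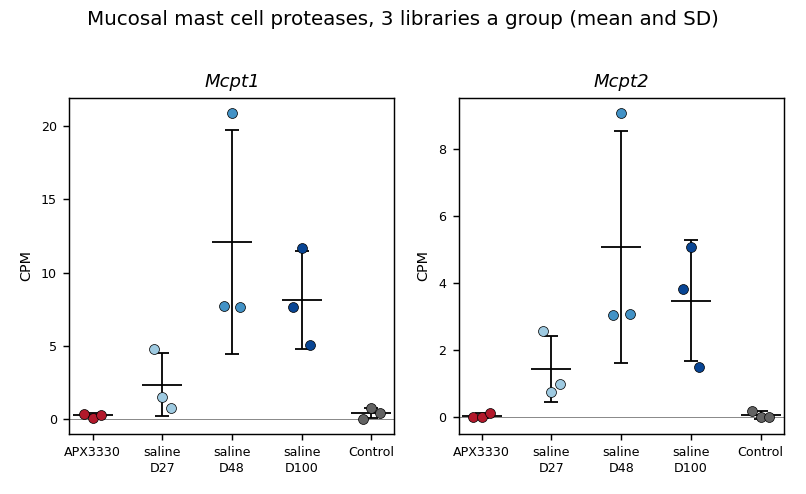
Level of Mcpt1 and Mcpt2 in CPM (vertical axis) in each of 15 libraries, by group; points are libraries, long bars the group mean and whiskers the SD of 3 libraries. The 9 saline libraries all lie above the 6 APX3330 and Control libraries, narrowly for Mcpt1 at D27, and 1 saline D48 library stands highest in both panels.

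In CPM, Mcpt1 averaged 0.224 ± 0.141 in APX3330, 2.33 ± 2.16 in saline D27, 12.1 ± 7.67 at D48, 8.11 ± 3.34 at D100 and 0.377 ± 0.366 in Control (mean ± SD, n = 3 each). Mcpt2 averaged 0.0447 ± 0.0774, 1.44 ± 0.983, 5.06 ± 3.47, 3.46 ± 1.81 and 0.0643 ± 0.111 CPM in the same order of groups. Both were highest at D48, in library 2, one of those with pancreatic transcripts, which had 314 reads of Mcpt1 and 136 of Mcpt2. Neighbours in the order of means overlapped for D48 and D100 and for Control and APX3330 in both genes, and for D100 and D27 in Mcpt2. In bulk tissue, fewer mast cells and less RNA per mast cell cannot be told apart.

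Over the 5 groups, 4 of the 6 genes tested differed by edgeR's F test, against 37.3% of all genes. Mcpt1 (adjusted p = 2.44e-04) and Mcpt2 (adjusted p = 2.48e-04) led, followed by Kit (8.22e-04) and Cma1 (0.0430), whereas Cpa3 (0.0852) and Tpsb2 (0.0996) did not pass. Adjusted p-values are Benjamini-Hochberg adjusted over the genes tested in each fit, 18038 unless another fit is named, with 0.05 as the threshold. Fitted log2 fold changes are given with their SE. Where groups are said not to overlap, the share of all genes without overlap was 38.2%, 42.5%, 39.9% and 32.4% for D27, D48, D100 and APX3330 against Control. It was 29.3%, 34.1% and 17% for APX3330 against D27, D48 and D100, and 20.1%, 25.9% and 32.6% for D48 against D27, D100 against D27 and D100 against D48. Without the squamous libraries, which leaves 1 Control library, only 1.07%, 3.07%, 2.43% and 0.747% of all genes were higher than in Control at D27, D48, D100 and in APX3330. Without the pancreatic libraries 2.67% were lower and 1.62% higher in APX3330 than in saline D48. Mcpt2 had 2 reads in all APX3330 libraries and 3 in all Control libraries, so its fitted change depends on the prior count. For it, a ratio of summed reads with its 95% counting interval is given instead. Such intervals, also used for Fcer1a, cover counting error only and leave out the spread between libraries.

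Relative to saline groups, the mucosal proteases were lower in APX3330 colons. Against saline D48, 3 of the 6 genes were lower and 1 higher, whereas 10.3% of all genes were lower and 9.41% higher. Mcpt1 had a log2 fold change of -5.70 ± 0.87 (edgeR adjusted p = 6.53e-04). Summed reads of Mcpt2 were 111 times higher in saline D48 than in APX3330 (30.4 to 922; adjusted p = 6.56e-04). Both calls held under each alternative fit and without each library, with adjusted p up to 0.0142.

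Against saline D100, where only 0.504% of all genes differed and 0.2% were lower, the 2 genes called were again Mcpt1 (log2 fold change -5.13 ± 0.87) and Mcpt2 (79.5 times more reads in saline D100, 21.6 to 662), each with an adjusted p of 0.0200. The Mcpt1 call was lost without saline D100 library 2 (adjusted p = 0.0906), APX3330 library 2 (0.113) or APX3330 library 3 (0.0745), with log2 fold changes between -5.28 and -4.71. That of Mcpt2 was lost without the same 3 libraries or without APX3330 library 1, with adjusted p between 0.0533 and 0.107.

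Against saline D27, 2 of the 6 genes were lower, as were 4.37% of all genes. Mcpt1 had a log2 fold change of -3.35 ± 0.89 (edgeR adjusted p = 0.0305), and Mcpt2 had 33.6 times more reads in saline D27 than in APX3330 (8.98 to 283; adjusted p = 0.0158). The Mcpt1 call was lost without saline D27 library 1 (adjusted p = 0.174) or 2 (0.0611) and without APX3330 library 2 (0.119) or 3 (0.0920). The Mcpt2 call was lost without saline D27 library 1 (0.0691) or APX3330 library 2 (0.0679).

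Relative to Control, Mcpt1 and Mcpt2 were higher in each saline group. At D48, 3 of the 6 genes were higher, as were 14.3% of all genes, with a log2 fold change of 5.01 ± 0.81 for Mcpt1 (edgeR adjusted p = 4.66e-04) and 73.2 times more Mcpt2 reads than in Control (24.8 to 358; adjusted p = 3.72e-04). At D100, 3 of the 6 were higher, as were 11.4% of all genes, with a log2 fold change of 4.44 ± 0.81 for Mcpt1 (edgeR adjusted p = 0.00125) and 52.4 times more Mcpt2 reads (17.6 to 257; adjusted p = 8.71e-04). Without the 3 libraries with squamous transcripts, which leaves 1 Control library that is assumed to vary like the other groups, the Mcpt1 log2 fold change was 4.01 at D48 (adjusted p = 0.0521) and 3.49 at D100 (adjusted p = 0.101). The Mcpt2 calls at D48 and D100 held under every alternative fit. Without the squamous libraries, however, they rested on a count of 0, as the 1 Control library left had 10 reads of Mcpt1 and none of Mcpt2.

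At D27, 4 of the 6 genes were higher than in Control, as were 10.2% of all genes. Mcpt1 had a log2 fold change of 2.66 ± 0.83 (edgeR adjusted p = 0.0349), and Mcpt2 had 22.2 times more reads than in Control (7.29 to 110; adjusted p = 0.00815). The Mcpt1 call was lost without saline D27 library 1 (log2 fold change 1.55, adjusted p = 0.237), saline D27 library 2 (0.0533), Control library 1 (0.113) or Control library 3 (0.0914). Without the libraries with squamous transcripts none of the 4 calls held, and the adjusted p was 0.433 for Mcpt1 and 0.117 for Mcpt2.

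Between saline days the calls for the mucosal proteases depended on the filter on low counts. With the filter, no gene of the 6 was called between D48 and D27 by edgeR or DESeq2, against 1.35% of all genes by edgeR, and 2 had an unadjusted p below 0.05, Mcpt1 and Mcpt2. All 3 D48 libraries lay above all 3 D27 libraries for both, with a log2 fold change of 2.35 ± 0.66 for Mcpt1 (edgeR adjusted p = 0.0947) and 1.79 ± 0.65 for Mcpt2 (adjusted p = 0.202). Without the filter both passed, with the same log2 fold changes (edgeR adjusted p = 2.00e-06 for Mcpt1 and 0.0122 for Mcpt2). Without saline D27 library 1, the highest of its group, the Mcpt1 difference was 3.46 on the log2 scale (adjusted p = 0.0495). Between D100 and D27, again with the filter, no gene of the 6 was called by edgeR or DESeq2, against 3.08% of all genes by edgeR, and 2 had an unadjusted p below 0.05, Mcpt1 and Kit. The D100 libraries lay above those of D27 for Mcpt1, with a log2 fold change of 1.78 ± 0.65 (adjusted p = 0.139). Without the filter Mcpt1 (edgeR adjusted p = 9.13e-04) and Kit (0.0443) passed.

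Of the connective tissue proteases, Cma1 was higher in 2 saline groups than in Control, Cpa3 was lower in APX3330 than in saline D48, and Tpsb2 passed no comparison. Cma1 had 79, 51 and 52 reads in APX3330, 82, 65 and 86 in saline D27, 77, 81 and 71 at D48, 73, 39 and 48 at D100, and 38, 31 and 35 in Control. It was the only protease of the 6 with at least 10 reads in all 15 libraries. All APX3330 and saline libraries lay above all Control libraries.

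In CPM, Cma1 averaged 4.07 ± 1.09 in APX3330, 4.79 ± 0.47 in saline D27, 4.87 ± 0.67 at D48, 3.76 ± 1.33 at D100 and 2.35 ± 0.0913 in Control (mean ± SD, n = 3 each). It was higher than in Control at D27 (log2 fold change 1.03 ± 0.28, edgeR adjusted p = 0.0186) and D48 (1.05 ± 0.28, adjusted p = 0.0116). It did not pass at D100 (0.67 ± 0.28, adjusted p = 0.102) or in APX3330 (0.79 ± 0.28, adjusted p = 0.0692), although neither group overlapped with Control, and at D100 it passed without library 2 of that group (0.90, adjusted p = 0.0409). The D27 call was lost without saline D27 library 3 (adjusted p = 0.0509), Control library 2 (0.0530) or 3 (0.0550), without the squamous libraries (0.168), and when Mcpt4 reads were added to those of Cma1 (0.0553). The D48 call was lost without the squamous libraries (0.116) or the pancreatic ones (0.0974), and the test over the 5 groups was lost in 13 of the alternative fits, 9 of them fits without 1 library, with adjusted p between 0.0582 and 0.156. Cma1 overlapped between APX3330 and each saline group.

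Cpa3 (chromosome 3, 20215620 to 20242181, minus strand), the carboxypeptidase stored with chymases, had 5, 0 and 0 reads in APX3330, 21, 7 and 4 in saline D27, 10, 22 and 11 at D48, 25, 11 and 12 at D100, and 13, 7 and 6 in Control. The APX3330 libraries lay below all those of saline D48, saline D100 and Control, and overlapped with saline D27 by 1 library. The difference passed the test against saline D48, with a log2 fold change of -2.95 ± 0.93 (edgeR adjusted p = 0.0373). It did not pass against saline D100 (-3.23 ± 0.93, adjusted p = 0.136) or Control (-2.30 ± 0.97, adjusted p = 0.121). Without the filter on low counts Cpa3 passed against saline D100 (-3.22, edgeR adjusted p = 0.0127) and in the F test over the 5 groups (0.0239).

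The Cpa3 call against saline D48 rested on few reads and was lost in 7 of 13 alternative fits. Adjusted p-values were 0.130 and 0.120 without APX3330 library 2 or 3, and 0.0534, 0.130 and 0.0585 without saline D48 library 1, 2 or 3. With only the groups compared in the fit it was 0.0809, and without the pancreatic libraries 0.312. Against Control the difference passed without APX3330 library 1 (adjusted p = 0.0173), which left APX3330 libraries with 0 reads of Cpa3.

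Tpsb2 (chromosome 17, 25366305 to 25369098, plus strand), a tryptase, had 7, 9 and 5 reads in APX3330, 18, 12 and 8 in saline D27, 14, 37 and 15 at D48, 22, 19 and 13 at D100, and 9, 1 and 11 in Control. The D48 and D100 libraries lay above all APX3330 and all Control libraries. No comparison passed the test: the log2 fold change was -1.58 ± 0.61 for APX3330 against saline D48 (edgeR adjusted p = 0.0809) and -1.40 ± 0.61 against saline D100 (adjusted p = 0.341). Against Control it was 1.58 ± 0.61 at D48 (adjusted p = 0.0650; 0.0487 without the squamous libraries) and 1.41 ± 0.61 at D100 (adjusted p = 0.116).

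Mcpt4, a chymase of connective tissue mast cells, did not pass the filter on low counts. It had 3, 0 and 1 reads in APX3330, 10, 9 and 2 in saline D27, 8, 7 and 7 at D48, 18, 7 and 1 at D100, and 18, 1 and 5 in Control. All groups next to each other in the order of means overlapped. Without the filter no comparison passed, with the lowest edgeR adjusted p at 0.128 for APX3330 against Control, and in the fits without 1 library in which it passed the filter the lowest was 0.0971 for the same comparison. Its 2 highest libraries, Control library 1 and saline D100 library 1, were the 2 with the most squamous transcripts, and the part of those in Mcpt4 was not tested. Reads shared with Cma2 make its level uncertain.

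**Figure D2:**
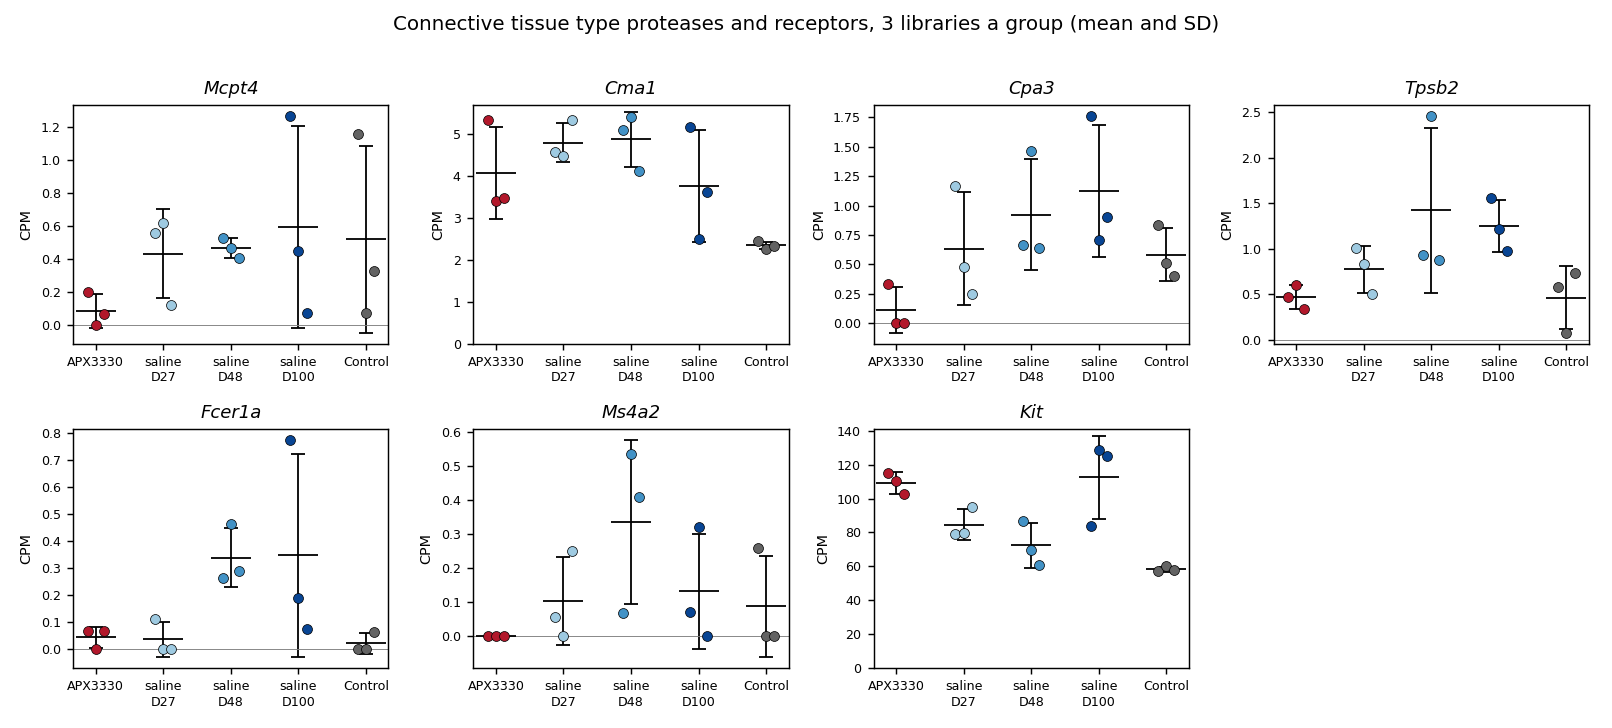
Level in CPM (vertical axes, each with its own range) of the connective tissue proteases Mcpt4, Cma1, Cpa3 and Tpsb2 and the receptors Fcer1a, Ms4a2 and Kit in each library; points are libraries, long bars the mean and whiskers the SD of 3 libraries. Cma1 and Kit are lowest in Control, Cpa3 is lowest in APX3330, and Mcpt4, Fcer1a and Ms4a2 rest on at most 18 reads a library.

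The share of mucosal proteases among reads of the 6 proteases was higher in saline than in APX3330 and Control colons. Of all reads of the 6 proteases, the mucosal pair took 5.05%, 1.64% and 9.38% in the APX3330 libraries, 50.2%, 25.6% and 21.9% in saline D27, 59.8%, 75.4% and 63.9% at D48, 54.0%, 77.4% and 54.0% at D100, and 3.70%, 20% and 9.52% in Control. Every saline library lay above every APX3330 and Control library, narrowly at D27 (21.9% in library 3 against 20% in Control library 2). These shares depend on Cma1, which gave most connective tissue reads in APX3330: without it 30 of 212 remained, beside 12 mucosal reads. Without Cma1, mucosal and connective tissue reads were 6 and 6 in APX3330 library 3, 10 and 9 in Control library 2, and 32 and 28 in saline D27 library 2. The means were 5.35% ± 3.88 in APX3330, 32.6% ± 15.4 in saline D27, 66.3% ± 8.08 at D48, 61.8% ± 13.53 at D100 and 11.1% ± 8.26 in Control (SD, n = 3 each). Within the pair, Mcpt1 had 0.75 to 3.35 reads for each read of Mcpt2 over the 9 saline libraries. Per kilobase of exon, the level of Cma1 was the highest of the 6 proteases in APX3330 colons (3.74 CPM per kb) and Control colons (2.15 CPM per kb), while in saline D48 colons Mcpt1 was highest, at 11.9 CPM per kb, with Mcpt2 at 4.77 and Cma1 at 4.47.

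The alpha and beta chains of the IgE receptor were barely read. Fcer1a (chromosome 1, 173221284 to 173227214, minus strand) had 1, 0 and 1 reads in APX3330, 2, 0 and 0 in saline D27, 4, 7 and 5 at D48, 11, 3 and 1 at D100, and 0, 0 and 1 in Control. Its D48 libraries lay above all APX3330, D27 and Control libraries, with 7.56 times as many summed reads as APX3330 (1.78 to 67.8) and 14.96 times as many as Control (2.32 to 627). Ms4a2 (chromosome 19, 11615523 to 11623719, minus strand) had no read in any APX3330 library, 1, 0 and 4 in saline D27, 1, 8 and 7 at D48, 1, 5 and 0 at D100, and 4, 0 and 0 in Control. Its summed level was at least 5.04-fold lower in APX3330 than in saline D48, taking 3 counts over the group as the floor. Neither passed when tested without the low-count filter, with adjusted p no lower than 0.0542 (Ms4a2, APX3330 against saline D48).

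Kit (chromosome 5, 75574916 to 75656722, plus strand) had 820 to 2005 reads a library and followed another order. It had 1705, 1657 and 1529 reads in APX3330, 1418, 1156 and 1536 in saline D27, 1315, 1043 and 1050 at D48, 1188, 2005 and 1659 at D100, and 891, 820 and 864 in Control. The highest means were those of saline D100 and APX3330, which overlapped, and the lowest that of Control. In CPM these were 109 ± 6.45 in APX3330, 84.6 ± 9.20 in saline D27, 72.5 ± 13.3 at D48, 112 ± 24.7 at D100 and 58.2 ± 1.43 in Control (mean ± SD, n = 3 each).

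Against Control, Kit was the 1 gene of the 6 called in APX3330, where 7.16% of all genes were higher, with a log2 fold change of 0.91 ± 0.15 (edgeR adjusted p = 0.00118). It was also higher than in Control at D100 (0.95 ± 0.15, adjusted p = 4.40e-04) and D27 (0.54 ± 0.15, adjusted p = 0.0206), and at D48 it did not pass (0.32 ± 0.15, adjusted p = 0.134). The calls for APX3330 and D100 held under all 13 alternatives run on each, with adjusted p up to 0.0419 and 0.0110. The D27 call was lost without saline D27 library 3 (adjusted p = 0.0728), Control library 1 (0.0646) or 3 (0.0625), or the squamous libraries (0.183).

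Kit was higher in APX3330 than in saline D48 (log2 fold change 0.59 ± 0.15, edgeR adjusted p = 0.0124), in the opposite direction to Mcpt1 and Mcpt2 in the same comparison. That call was lost without saline D48 library 3 (adjusted p = 0.0628) and without both pancreatic libraries (0.386). Between D100 and D48, Kit was the 1 gene of the 6 called higher, as were 7.2% of all genes (0.63 ± 0.15, adjusted p = 0.0116). The groups overlapped, and the call was lost without saline D48 library 3 (0.0575), saline D100 library 2 (0.0615) or 3 (0.0581), without the pancreatic libraries (0.344) and with only the groups compared in the fit (0.0572).

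Beside Kit, 4 other markers of interstitial cells of Cajal were read, Ano1, Etv1, Thbs4 and Prkcq. None was higher than in Control in any group. Relative to Control 1 was lower at D27, 2 at D48 and 2 at D100, where 9.36%, 13% and 10.5% of all genes were, and none in APX3330. These lower calls did not hold without the squamous libraries, and those at D48 did not hold without the pancreatic ones. The summed level of these 4 markers was 703 to 864 CPM in APX3330, 590 to 730 in saline D27, 640 to 779 in saline D48, 595 to 639 in saline D100 and 829 to 917 in Control. Smooth muscle markers summed to 4475 to 5850 CPM in APX3330, 7536 to 10159 in saline D27, 5130 to 6131 in saline D48, 5282 to 6979 in saline D100 and 10399 to 10645 in Control. The part of these cells in the Kit level was not tested.

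**Figure D3:**
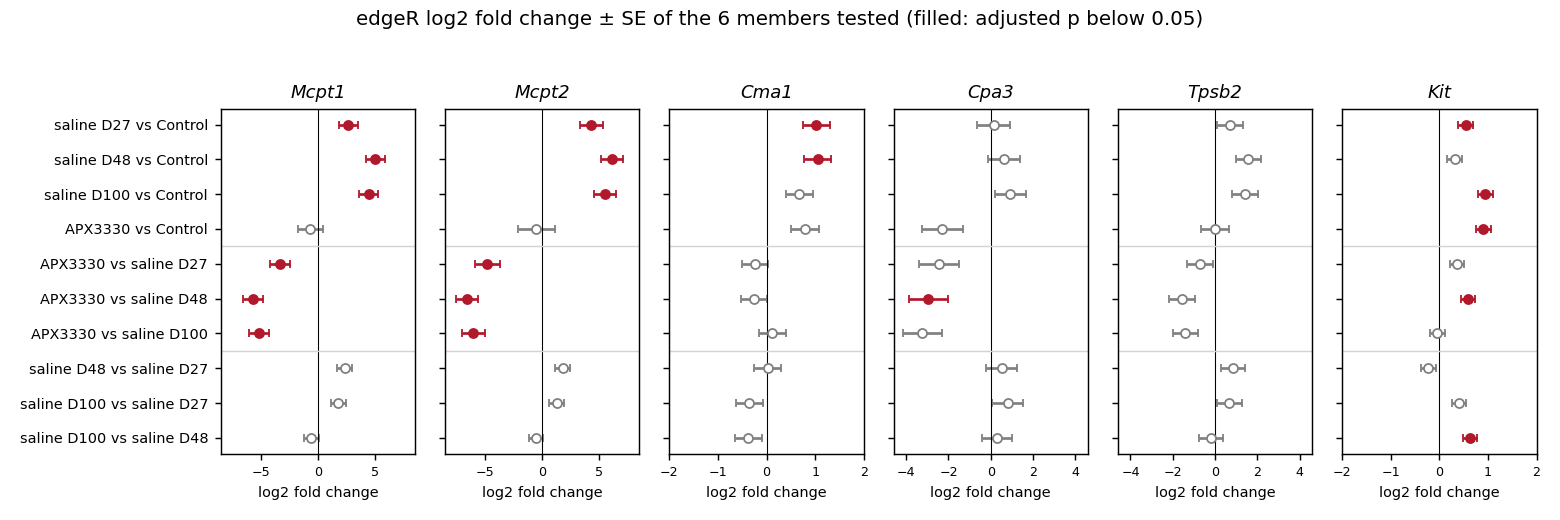
Fitted log2 fold change (horizontal axes, each with its own range) of the 6 genes tested in 10 comparisons; points are edgeR estimates, whiskers their SE, and filled points have an adjusted p below 0.05. Mcpt1 and Mcpt2 lie right of 0 for each saline group against Control and left of 0 for APX3330 against each saline group, while Kit lies right of 0 for all 4 groups against Control; Mcpt2 changes against APX3330 or Control rest on 2 or 3 reads in those groups.

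The comparisons of APX3330 with 3 saline groups share the same APX3330 libraries, and the comparisons with Control share the Control libraries, so they are not independent of each other.

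Other genes of mast cell biology were read from 4 lists. Of 10 tested genes for granule contents and mediators, 7 differed over the 5 groups by edgeR's F test, against 37.3% of all genes. Relative to Control 4 were higher and 2 lower at D27, 4 and 1 at D48, 4 and 0 at D100, and 2 and 1 in APX3330. Of all genes, 10.2% were higher and 9.36% lower at D27, 14.3% and 13% at D48, 11.4% and 10.5% at D100, and 7.16% and 8.18% in APX3330. Of those higher, 1 of 4 at D27, 3 of 4 at D48, 1 of 4 at D100 and 1 of 2 in APX3330 still passed without the squamous libraries, and of those lower only the 1 at D48 did. Their median log2 fold change against Control was 1.05 at D27, 0.80 at D48, 1.09 at D100 and 0.52 in APX3330, where the median of all genes was between 0.00 and 0.02. Relative to saline D48, 2 were lower and 1 higher in APX3330, as were 10.3% and 9.41% of all genes. The median log2 fold change there was -0.07, against -0.01 for all genes. The 1 higher was Alox5, a call that was lost without the pancreatic libraries. Hdc, which makes histamine, averaged 1.21 ± 0.74 CPM in APX3330, 2.29 ± 0.88 in saline D27, 6.43 ± 2.11 at D48, 1.53 ± 0.76 at D100 and 0.653 ± 0.185 in Control, and was lower in APX3330 than in saline D48 (log2 fold change -2.41 ± 0.47, adjusted p = 0.00287; 0.0192 without the pancreatic libraries).

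Srgn, the proteoglycan core that holds proteases in the granule and is also made by other leukocytes, averaged 18.3 ± 5.65 CPM in APX3330, 26.9 ± 5.05 in saline D27, 44.1 ± 16.3 at D48, 29.1 ± 4.18 at D100 and 14.998 ± 1.46 in Control. It was higher than in Control in all saline groups and lower in APX3330 than in saline D48 (log2 fold change -1.27 ± 0.25, edgeR adjusted p = 0.00285; 0.0293 without the pancreatic libraries). Against Control, Srgn passed at D48 without the squamous libraries (edgeR adjusted p = 0.0486) but not at D27 (0.321) or D100 (0.212). Tpsg1, a membrane tryptase, moved differently and was higher than in Control in APX3330 (2.26 ± 0.25, adjusted p = 6.77e-05) as well as at D27, D48 and D100 (2.32, 1.87 and 2.61), all of which held without the squamous libraries. Tpsg1 overlaps Cacna1h in the annotation, so its reads are uncertain. Alox5, a leukotriene enzyme, was higher than in Control in APX3330, at D27 and at D100, with log2 fold changes of 1.19 to 1.29. None of these 3 calls held without the squamous libraries. Alox5 was also higher in APX3330 and at D100 than at D48, and lower at D48 than at D27. Those calls, and that of Tpsg1 higher at D100 than at D48, were lost without the pancreatic libraries.

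Of 8 tested genes for other receptors and transcription factors of mast cells, 6 differed over the 5 groups, against 37.3% of all genes. Relative to saline D48, 4 were lower and 1 higher in APX3330, as were 10.3% and 9.41% of all genes, with a median log2 fold change of -0.75 against -0.01 for all genes. Of these, 2 were still lower without the pancreatic libraries, Fcer1g and the IL-9 receptor gene Il9r, which is named after its values were seen, and the 1 higher no longer passed. Il1rl1, the receptor for IL-33, averaged 7.32 ± 2.15 CPM in APX3330, 11.1 ± 5.42 in saline D27, 19.0 ± 0.80 at D48, 18.3 ± 0.39 at D100 and 3.56 ± 2.47 in Control. It was higher than in Control in all 3 saline groups, with log2 fold changes of 1.64 at D27, 2.42 at D48 and 2.37 at D100, and lower in APX3330 than in saline D48 (-1.37 ± 0.38, edgeR adjusted p = 0.0193). The calls against Control did not hold without the squamous libraries (log2 fold change 0.78 at D27, 1.56 at D48 and 1.49 at D100, adjusted p = 0.370, 0.0615 and 0.0943) and that against saline D48 did not hold without the pancreatic ones (-1.31, adjusted p = 0.172). Fcer1g, the gamma chain of Fc receptors, which other leukocytes use too, was higher than in Control in all 3 saline groups and lower in APX3330 than in saline D48 (-1.57 ± 0.22, adjusted p = 4.35e-04) and saline D27 (-0.90 ± 0.22, adjusted p = 0.0239). With the squamous libraries left out, it passed against Control only at D48 (edgeR adjusted p = 0.0267, against 0.203 at D27 and 0.316 at D100), and without the pancreatic ones it was still lower in APX3330 than in saline D48 (0.0142).

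**Figure D4:**
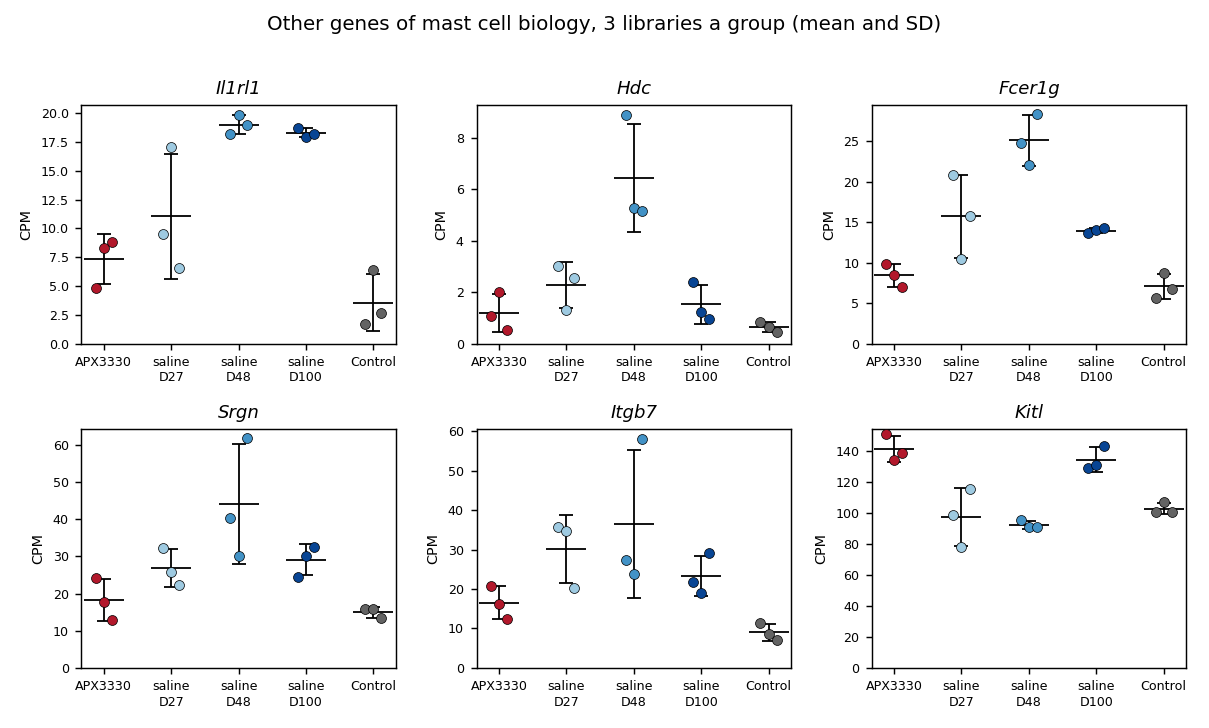
Level in CPM (vertical axes, each with its own range) of Il1rl1, Hdc, Fcer1g, Srgn, Itgb7 and Kitl in each library; points are libraries, long bars the mean and whiskers the SD of 3 libraries. Hdc, Fcer1g, Srgn and Itgb7 have their highest mean in saline D48, Il1rl1 is high in saline D48 and D100, and Kitl is highest in APX3330.

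Rgs13, a regulator of G protein signalling, was higher than in Control in APX3330 (log2 fold change 2.28 ± 0.44, edgeR adjusted p = 0.00308), at D27 (2.57) and at D100 (2.52), and these calls held without the squamous libraries. Gata2, a transcription factor of the mast cell lineage, is named after its values were seen. It was lower in APX3330 than in saline D48 (-1.09 ± 0.28, adjusted p = 0.0147) and than in Control (-1.08 ± 0.28, adjusted p = 0.0186), calls that were lost without the pancreatic libraries (0.132) and the squamous libraries (0.505).

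All 12 genes of Fc epsilon receptor signalling were tested, and against Control 7 were higher at D27, 10 at D48, 7 at D100 and 2 in APX3330, where 10.2%, 14.3%, 11.4% and 7.16% of all genes were. Of the 10 at D48, 2 still passed without the squamous libraries, and the calls at D27, D100 and in APX3330 were lost. Their median log2 fold change with all libraries was 0.95, 1.26, 0.82 and 0.45. Relative to saline D48, 4 were lower in APX3330, as were 10.3% of all genes, and these 4 calls were lost without the pancreatic libraries. Among them were the kinase Syk (-0.76 ± 0.19, edgeR adjusted p = 0.0118) and the phosphatase Inpp5d (-0.95 ± 0.24, adjusted p = 0.0123), which also act in other leukocytes. The adaptor Lcp2 (1.32 ± 0.32, adjusted p = 0.0128) and the phospholipase Plcg2 (0.77 ± 0.25, adjusted p = 0.0472) were those higher in APX3330 than in Control.

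Of 9 tested genes for growth, maturation and homing of mast cells, 7 differed over the 5 groups, against 37.3% of all genes. Kitl, which encodes stem cell factor, the ligand of Kit, averaged 141 ± 8.54 CPM in APX3330, 97.2 ± 18.7 in saline D27, 92.3 ± 2.60 at D48, 134 ± 7.82 at D100 and 103 ± 3.46 in Control. It was higher in APX3330 than in saline D27 (log2 fold change 0.54 ± 0.11, edgeR adjusted p = 0.0122), saline D48 (0.61 ± 0.11, adjusted p = 0.00189) and Control (0.46 ± 0.11, adjusted p = 0.0127). Saline D100 was likewise higher than saline D27 (0.47 ± 0.11, edgeR adjusted p = 0.0364), saline D48 (0.54 ± 0.11, adjusted p = 0.00610) and Control (0.39 ± 0.11, adjusted p = 0.0210), and APX3330 against saline D100 did not pass (0.07 ± 0.11, adjusted p = 0.847). The calls against Control were lost without the squamous libraries (0.315 for APX3330 and 0.350 for D100), that of D100 against D27 too (0.131), and those against saline D48 without the pancreatic ones (0.0774 for APX3330 and 0.135 for D100). Itgb7 and Itga4, the chains of the integrin that brings mast cell progenitors to the gut and also serves lymphocytes, were both higher than in Control in all 3 saline groups and lower in APX3330 than in saline D48 (-1.14 ± 0.32 and -0.82 ± 0.24, edgeR adjusted p = 0.0207 and 0.0263). With the squamous libraries left out, both passed against Control only at D48, and without the pancreatic ones neither was called lower in APX3330 than in saline D48 (adjusted p = 0.255 and 0.0642). Il3 and Il9, cytokines that drive mucosal mast cell growth, had no read in any library.

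Markers of other leukocytes moved with these groups. Of 4 leukocyte markers (Ptprc, Cd3e, Itgam and Lyz2) 3 were higher than in Control at D27, 3 at D48, 3 at D100 and 1 in APX3330, where 10.2%, 14.3%, 11.4% and 7.16% of all genes were, and 2 were lower in APX3330 than in saline D48, as were 10.3%. Without the squamous libraries 2 of those at D48 still passed and the calls in the other groups were lost, while the 2 against saline D48 held without the pancreatic libraries. The D48 call of Cd3e against Control was lost without the pancreatic libraries. The 4 leukocyte markers summed to 255 to 374 CPM in APX3330, 428 to 538 in saline D27, 516 to 989 in saline D48, 355 to 457 in saline D100 and 159 to 205 in Control. The part of other cells, leukocytes or not, in the levels of Hdc, Srgn, Alox5, Fcer1g, Il1rl1, Itgb7, Itga4 and the signalling genes was not tested. Which cells gave the Rgs13 reads was not tested either. Of 3 markers of basophils, which share the IgE receptor, Mcpt8 had 0 to 2 reads a library and Prss34 none. The third, Cd200r3, had 1 to 4 reads in APX3330, 2 to 15 in saline D27, 4 to 20 at D48, 0 to 3 at D100 and 4 to 10 in Control, and passed no comparison (lowest edgeR adjusted p = 0.0811, D100 against D48). Their part in the levels of Fcer1a and Ms4a2 was not tested.

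The genes with levels most like the mucosal proteases over the 15 libraries were found by the mean absolute difference between centred log2 CPM profiles among 13863 genes. They were Khdc1a (0.86), Myl7 (0.89), Clca4b (0.91), Plet1 (0.96) and Dhrs9 (0.98), where the mucosal profile itself had a mean absolute value of 1.96. Plet1, an epithelial surface protein, averaged 3.04 ± 0.56 CPM in APX3330, 18.1 ± 9.38 in saline D27, 40.8 ± 5.16 at D48, 24.8 ± 5.82 at D100 and 1.41 ± 0.90 in Control. Clca4b, of a family of secreted epithelial proteins with near-identical copies, averaged 6.25 ± 1.44 CPM in APX3330, 73.1 ± 10.1 in saline D27, 411 ± 144 at D48, 108 ± 123 at D100 and 14.5 ± 9.76 in Control. For the 3 connective tissue proteases tested, whose mean profile had a mean absolute value of 0.50, the nearest were Oasl1 (0.22), Emb (0.26), Nnmt (0.28), Nav3 (0.28) and Lpl (0.29).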

How the data were processed

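The data are 15 RNA-seq libraries of mouse colon in 5 groups. The authors deposited 1 table of unnormalised whole-number counts per gene. Per the labels' protocols, a column kit gave the RNA and a SMARTER kit the libraries. The submitters' processing notes name GRCm38 and mm10. The aligner and counter, and how strand and reads matching several genes were treated, are not given in the sources used.

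Columns were matched to samples by name. Low-count genes were dropped by filterByExpr (minimum count 10). A single fit of all 15 libraries was made in edgeR 4.0.16 under R 4.3.3 (TMM scaling, glmQLFit and glmQLFTest, Benjamini-Hochberg adjusted p below 0.05) covering 10 comparisons and a 5-group F test. CPM values were scaled to library size with TMM factors. No pair of libraries in a group agreed within counting noise, so none was treated as a duplicate. Simulated counts with known changes were used to test the fit. Coordinates, exon lengths and coding sequences are from GENCODE M21, promoters from RefSeq GRCm38.p6, and alignments were made with Biopython 1.88 in Python 3.11.15.

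The genes and lists were chosen with earlier results of these data known. All 9 genes are named, and of each further list the 2 with the smallest F test p plus those called in at least 4 comparisons, at most 4 a list, and 5 genes most like each protease profile. The smooth muscle, epithelial, squamous and pancreatic lists were left out of this naming and are given only as sums or shares of counts. A further gene of the leukocyte marker list is not reported here. Alternatives were DESeq2 size factors, the DESeq2 test (version 1.42.0), no filter on low counts, a replicate block, fits of only the groups compared, fits without each library, fits without the libraries with squamous or pancreatic transcripts, and the counts of similar genes summed (Mcpt1 with Mcpt2, Mcpt4 with Cma1, Tpsb2 with Tpsab1).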

Additional observations from a re-analysis of the deposited data

How the results depend on the processing

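Counts of the 6 tested genes called were recomputed under each alternative. Without the filter on low counts 2 were called between D48 and D27 and 2 between D100 and D27, against 0 in each. With only the groups compared in the fit, none was called between D100 and D48, against 1. Without the libraries with squamous transcripts, none was called between D27 and Control, against 4. Without those with pancreatic transcripts 2 were called between APX3330 and D48, against 4, and none between D100 and D48. Leaving out 1 library at a time gave 1 to 2 calls for APX3330 against Control, 0 to 3 against D27, 2 to 4 against D48 and 0 to 2 against D100. For D27, D48 and D100 against Control it gave 1 to 3, 3 to 3 and 3 to 4 calls. Between saline days it gave 0 to 1 call in each comparison, and over the 5 groups 3 to 5.

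Of 563 recomputed values of the 6 genes, 491 kept direction and side of the threshold, 59 no longer passed and 13 newly passed. In the fit with similar genes summed, each gene took the value of its sum, so Mcpt1 and Mcpt2 shared the same values there. These 563 were F statistics, which have no direction, and fold changes that were called or did not overlap between groups with all libraries. None turned its direction, but this choice of values made a turn unlikely in advance. Further genes named were refitted only without the squamous or the pancreatic libraries, a choice made after seeing the data: of 113 such refits of called changes 45 still passed, 68 did not and 0 turned. With Mcpt1 and Mcpt2 reads summed, the log2 fold change was -3.78 for APX3330 against D27 (edgeR adjusted p = 0.0106), -5.95 against D48 (1.85e-04) and -5.39 against D100 (0.00712).

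Replicate numbers did not pair the libraries: 2 of 30 correlations between same-numbered libraries were over 0.1, from -0.14 to 0.25, and 3 of 15 libraries correlated best with their own number. With the replicate block the counts of the 6 genes called were 4, 3 and 3 for D27, D48 and D100 against Control, 1 for APX3330 against Control, and 2, 4 and 2 for APX3330 against D27, D48 and D100. The same block gave 5 over the 5 groups, against 4, as Cpa3 passed.

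Counts over all genes moved more. With 1 library left out, 9 to 73 genes were called for APX3330 against D100 (91 with all libraries), 362 to 1890 against D27 (1638), 2129 to 3209 against D48 (3557) and 1469 to 2481 against Control (2766). For D27, D48 and D100 against Control it gave 1799 to 3322 (3522), 3550 to 4458 (4916) and 2621 to 3508 (3943), and for D48 against D27, D100 against D27 and D100 against D48 24 to 247 (244), 31 to 788 (556) and 1341 to 1994 (2453). Without the squamous libraries 410, 1275, 990 and 382 were called for D27, D48, D100 and APX3330 against Control, 37 for APX3330 against D100, 63 for D100 against D27, 1362 for D100 against D48 and 3088 over the 5 groups (6737). Without the pancreatic ones 851 were called for APX3330 against D48, 1536 for D48 against Control, 24 for D48 against D27 and 499 for D100 against D48. Without the filter there were 776 for APX3330 against D100, 911 for D48 against D27 and 1186 for D100 against D27, and with DESeq2 434, 714 and 1221. With only 2 groups in the fit there were 960 and 2021 for APX3330 against D27 and D48, 49 for D48 against D27 and 356 for D100 against D27, and with the replicate block APX3330 against D100 had 49. Depth limits Mcpt4, Fcer1a and Ms4a2, which had at most 18 reads a library, and any fold against APX3330 or Control for Mcpt2.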

Other observations

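The chymase locus on chromosome 14 also holds Cma2 and Mcpt9, 2 further chymase genes of the mouse, whose coding sequences are 98.1% identical and which share 18.8% of the 50-base windows of Mcpt9, so their reads may be split. Cma2 had 0, 1 and 0 reads in APX3330, 4, 1 and 1 in saline D27, 11, 6 and 3 at D48, 17, 21 and 0 at D100, and none in Control. It was at least 6.23-fold higher at D48 than in Control and at least 13.02-fold higher at D100, with 3 counts over the group as the floor (edgeR adjusted p = 0.0338 and 0.0133), calls that were lost without the squamous libraries (0.280 and 0.267) and at D48 without the pancreatic ones (0.0806). Mcpt9 was too sparse to test and had 0, 3 and 0 reads in APX3330, 2, 0 and 0 in saline D27, 8, 6 and 4 at D48, 2, 20 and 2 at D100, and 1, 0 and 0 in Control.

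Gzmb, a granzyme of cytotoxic lymphocytes 240.9 kb from Mcpt1, averaged 4.10 ± 1.19 CPM in APX3330, 4.74 ± 1.36 in saline D27, 4.74 ± 1.98 at D48, 4.79 ± 1.81 at D100 and 0.871 ± 0.378 in Control (mean ± SD, n = 3 each). It was higher than in Control in APX3330 (log2 fold change 2.22 ± 0.42, edgeR adjusted p = 0.00284) as well as in the saline groups (2.43 at D27, 2.43 at D48 and 2.45 at D100). All 4 calls held without the libraries with squamous transcripts.

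Markers of eosinophils, another granulocyte, were read too, and 3 of 4 were tested. Siglecf, an eosinophil surface lectin, averaged 1.59 ± 0.45 CPM in APX3330, 2.47 ± 0.62 in saline D27, 1.48 ± 0.57 at D48, 2.79 ± 0.62 at D100 and 0.843 ± 0.290 in Control, and was higher than in Control at D27 (edgeR adjusted p = 0.0139) and D100 (0.00633). Ccr3, the eotaxin receptor, averaged 0.762 ± 0.415 CPM in APX3330, 0.218 ± 0.181 in saline D27, 0.746 ± 0.271 at D48, 1.37 ± 0.10 at D100 and 0.111 ± 0.192 in Control, and was higher than in Control at D48 (edgeR adjusted p = 0.0393) and D100 (0.00949). Prg2, a granule protein gene named after its values were seen, averaged 0.894 ± 0.154 CPM in APX3330, 1.17 ± 0.17 in saline D27, 2.10 ± 0.94 at D48, 1.10 ± 0.24 at D100 and 0.583 ± 0.533 in Control, and was higher than in Control at D48 (edgeR adjusted p = 0.0160). In APX3330 the adjusted p against Control was 0.145 for Siglecf, 0.0561 for Ccr3 and 0.493 for Prg2. Epx, the fourth, had 0 to 4 reads a library. Which cells gave the reads of these markers was not tested. Without the squamous libraries Ccr3 at D100 (0.0428) and Prg2 at D48 (0.0399) held, and without the pancreatic ones neither call at D48 did.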
